A study of Homo sapiens with 6 samples.

Results

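ATP-binding cassette (ABC) genes were read in U251, an established human cell line from an astrocytic glioma, cultured for 24 h in the presence or absence of 6-shogaol. The genes were taken by name: every gene of the deposited expression table called ABC, a subfamily letter from A to G and a number. This gave 46 of 60612 genes, 45 of them protein-coding and 1 (ABCC13) a pseudogene. Of the 46, 36 had a mean raw count of 10 or more over the 6 libraries, and 35 passed the filter on low counts and were tested. RNA sequencing was done on 3 control libraries and 3 libraries of cells given 6-shogaol, a pungent enone of dried ginger, at a labelled dose of 60 with the unit written "μm" and read here as micromolar. All cells were wild type by the labels, of 1 line, grown in DMEM with fetal bovine serum. Whether replicates came from separate cultures is not stated in the labels. The p-values therefore speak only of the spread among these libraries, which may be technical.

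ABC proteins share a nucleotide-binding domain that hydrolyses ATP. Most couple it to membrane domains and move lipids, sterols, peptides, metals, porphyrins or drug conjugates across a membrane. Full-size transporters carry both copies of each domain in 1 chain, and the short ones pair up. ABCE1 and the F subfamily have no membrane domain and act on ribosomes. At the blood-brain barrier ABCB1 (P-glycoprotein) and ABCG2 limit the entry of drugs, and in tumour cells the C subfamily (multidrug resistance proteins) exports glutathione and glucuronide conjugates. Electrophiles such as enones are commonly conjugated to glutathione before export.

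Library totals ran from 43516840 to 60018999 counts. A listed 0 therefore allows a level of at most 0.05 to 0.0689 CPM (read counts scaled to library size, TMM-adjusted), depending on the library, which is the worth of 3 counts and covers counting error only. On principal component 2 of the whole table (20.6% of the variance) 6-shogaol replicate 1 had a score of -61.8, against -22.6 to 33.9 for the others. Of 13 astrocytic glioma markers 9 had a mean FPKM (fragment counts scaled to transcript length and library size) of at least 1, VIM, NES and SOX2 being the highest, while ALDH1L1 was under 10 counts. The summed FPKM of these markers ran from 1416 to 1442 in controls and from 1198 to 1852 with 6-shogaol. VIM alone had a mean of 1156 FPKM, so this sum mostly follows VIM. Of the 11 markers tested in edgeR, 8 had a log2 fold change below 0 and 3 above, with a median of -0.33. In edgeR FABP7, GFAP and NES fell, DESeq2 called these and SOX2 and SOX9 lower, and limma called FABP7 and GFAP. Of 9 brain endothelial markers PECAM1, CLDN5, TEK and FLT1 were under 10 counts, CDH5 fell in edgeR (DESeq2 called CDH5 and MFSD2A lower, and limma 0 of the 1 it tested), and the list summed to 5.42 to 6.06 FPKM in controls and 4.05 to 4.64 with 6-shogaol. Macrophage markers summed to 5.65 to 6.49 and 7.37 to 11.9 FPKM with PTPRC, AIF1 and TYROBP under 10 counts, neuron markers to 8.61 to 9.19 and 10.0 to 11.6, and oligodendrocyte markers to 22.5 to 28.2 and 14.2 to 22.4, with MOG, MAG, MOBP and OLIG2 under 10 counts. In the endothelial, macrophage and oligodendrocyte lists only 1 gene each had a mean of at least 1 FPKM. These were MFSD2A (4.55), CD68 (7.20) and CNP (20.8), so each sum mostly follows a single gene. The neuron sum was mostly SYT1 (7.41). DESeq2 called CD68 higher and CNP lower, and edgeR and limma called neither. The part of these shifts in the results on ABC genes was not tested. In bulk RNA, fewer cells with a transcript and less transcript per cell cannot be told apart.

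U251 cells expressed ABC genes of most subfamilies, and 2 of them rose with 6-shogaol. ABCB6, a porphyrin transporter, went up 1.77-fold and ABCC3, an exporter of conjugates, 1.36-fold. These were 2 of 35 tested members (5.71%), against 3.38% of all 19279 genes tested (edgeR, quasi-likelihood F test, adjusted p under 0.05 by Benjamini-Hochberg). In the upward direction the background was 1.67% and in the downward direction 1.71%. No member fell by that test. At unadjusted p under 0.05, 6 members were higher and 2 lower, 8 of 35 (22.9%) against a background of 20.4%. DESeq2 called 3 higher (10.7% of 28 members with an adjusted p, against 6.00% of all genes) and 1 lower (3.57%, against 6.02%), and limma on FPKM called 2 higher and 0 lower. Likewise 2 members were called with RLE scaling (3.41% of all genes), upper-quartile scaling (3.42%), no filter on low counts (1.18%), robust moderation (3.98%) and limma on log2(FPKM + 1), log2(FPKM + 0.1) and log2(FPKM + 1) without a filter (6.04%, 5.79% and 0.849% of all genes). Leaving out control replicate 1, 2 or 3 left 1, 0 and 0 members called (0.695%, 0.490% and 0.850% of all genes). Leaving out 6-shogaol replicate 1, 2 or 3 left 2, 0 and 1 (5.07%, 0.815% and 0.861%), and a replicate block left 0 (0.0156%). The members' median log2 fold change was 0.02 and that of all tested genes 0.00. The median size of the change, whatever its sign, was 0.21 for members and 0.22 for all tested genes.

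**Figure D1:**
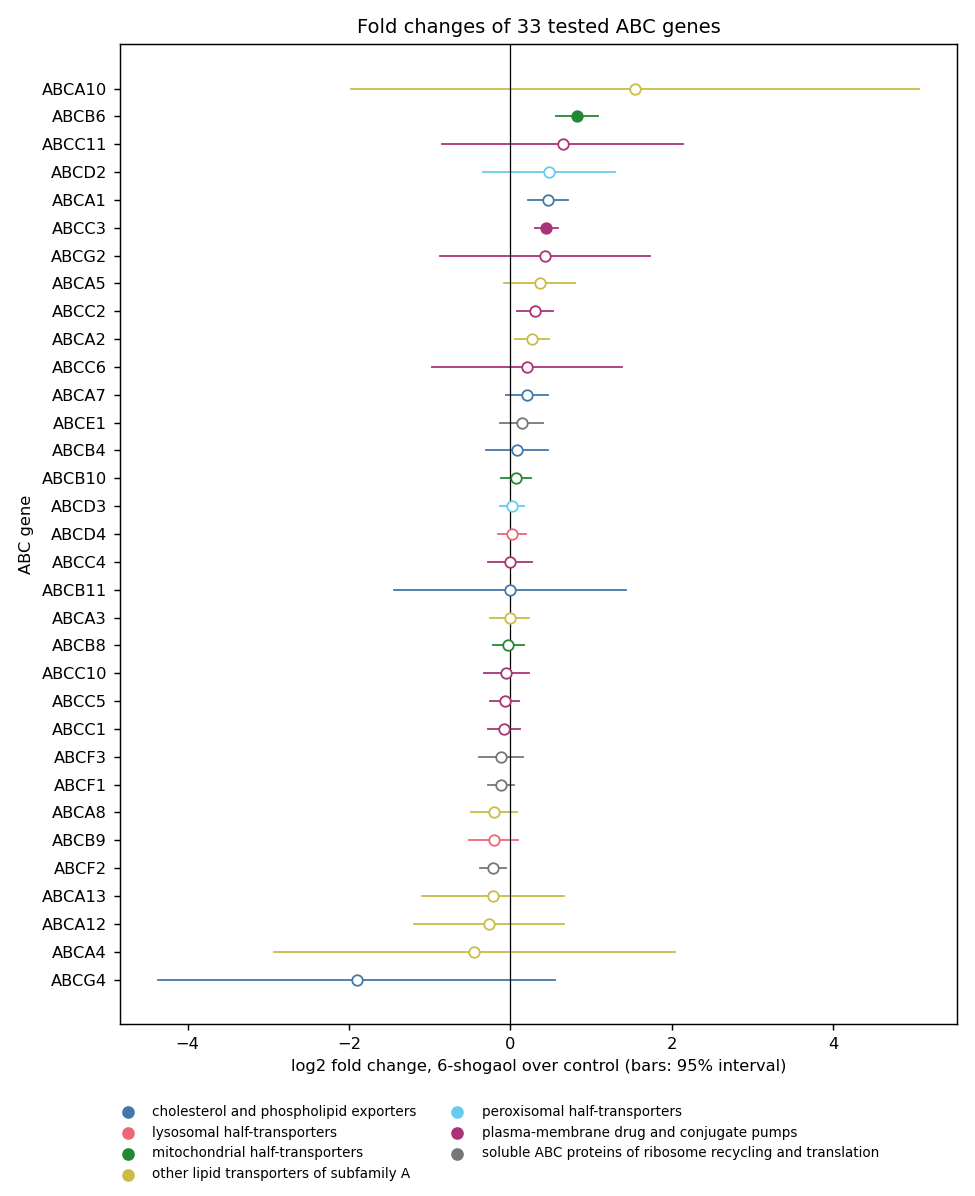
Log2 fold change of 6-shogaol over control (x axis) for 33 tested ABC genes (y axis), coloured by role, with the 95% interval as a bar. Filled points passed edgeR's test. ABCB6 (0.82) and ABCC3 (0.45) are filled, and the widest bars belong to genes of low level such as ABCG4 and ABCA10.

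Levels were compared between genes on the FPKM scale, which is per length. ABCF1, a soluble ABC protein that takes part in translation initiation, had the highest level of all members, with 40.1, 40.9 and 43.9 FPKM in controls and 37.8, 38.0 and 41.1 with 6-shogaol. ABCC1, the multidrug resistance protein 1 that exports glutathione conjugates, came next with 27.4, 28.4 and 31.5 FPKM in controls and 31.1, 26.1 and 26.7 with 6-shogaol. Neither range overlapped that of the next gene in the order. ABCC3, ABCF2, ABCF3, ABCA3 and ABCD3 followed with means of 17.9, 15.0, 13.6, 12.1 and 11.5 FPKM over the 6 libraries, and the ranges of neighbours in this stretch overlapped. In all, 7 members had a mean of at least 10 FPKM, 15 lay from 1 to under 10, and 24 lay under 1. Along the 36 members with a mean of 10 or more counts, 28 of 35 neighbouring pairs had overlapping ranges, so the order is fixed only at a few steps. One of these steps was between ABCC10 (2.74 to 3.65 FPKM) and ABCC4 (2.13 to 2.60 FPKM), and another between ABCB9 (0.977 to 1.38) and ABCB4 (0.610 to 0.840).

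**Figure D2:**
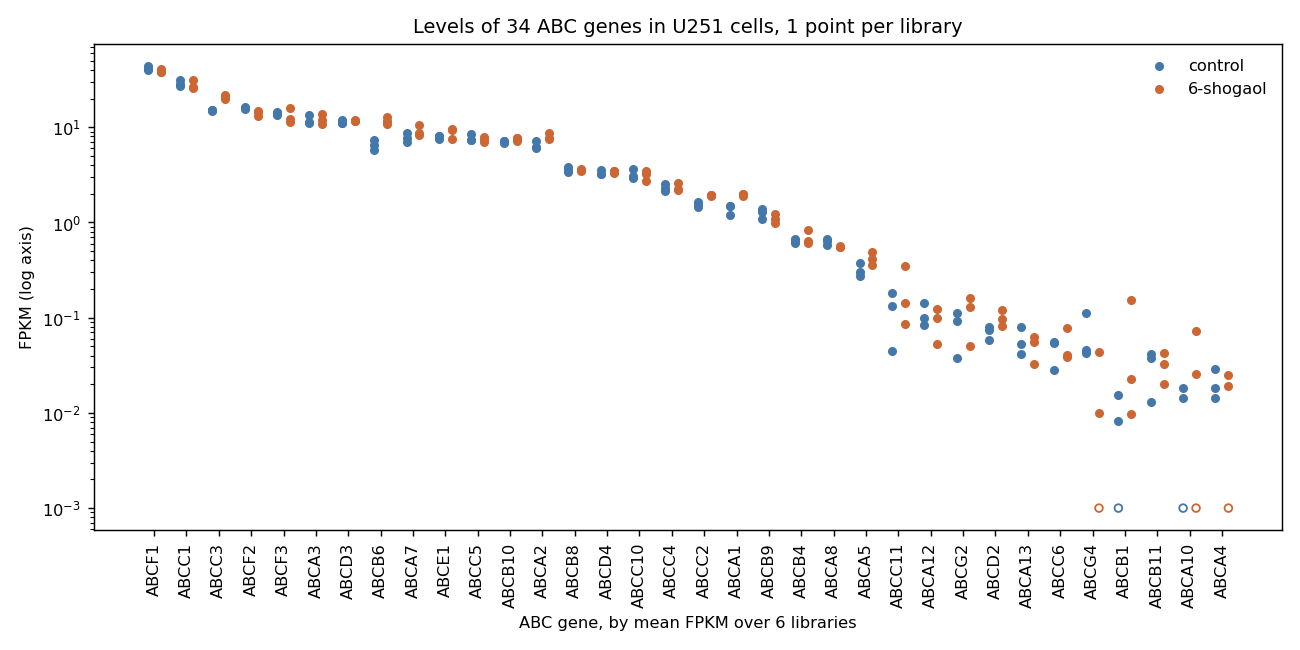
FPKM (y axis, log scale) of 34 ABC genes with a mean of 10 or more counts, ordered by mean level (x axis), with 1 point per library. Open circles at the bottom mark libraries listed at or near 0. ABCF1 and ABCC1 stand above the rest, and ABCB1, ABCG2 and ABCG4 lie under 0.2 FPKM in every library.

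ABCF1 and ABCC1 together made up 32.0% to 33.0% of the summed FPKM of all members in controls and 29.2% to 30.2% with 6-shogaol. The soluble proteins ABCE1 and ABCF1 to ABCF3 held 36.1% to 37.1% of the sum in controls and 32.2% to 34.4% with 6-shogaol, and the groups did not overlap. Drug and conjugate pumps held 26.9% to 27.6% and 27.5% to 29.2%, which overlapped slightly. Mitochondrial transporters held 9.50% to 11.2% and 11.9% to 14.1%, and peroxisomal ones 9.94% to 10.4% and 8.92% to 9.07%. These shares sum to a fixed total, so that a gain of one role lowers the others. Of the 4 mitochondrial members, ABCB6 went from a mean of 6.54 FPKM in controls to 11.8 with 6-shogaol. ABCB10 went from 7.05 to 7.52 and ABCB8 had 3.56 in both groups.

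**Figure D3:**
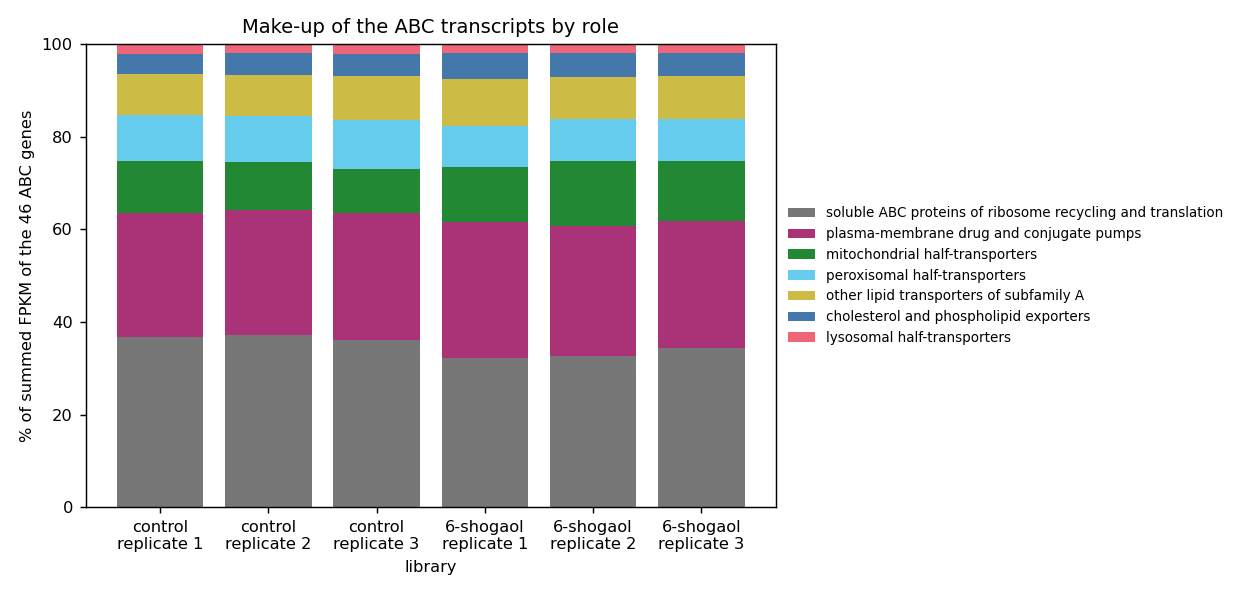
Share of the summed FPKM of the 46 ABC genes (y axis, percent) held by each role in each library (x axis). Soluble proteins and plasma-membrane pumps make up most of each bar, and the mitochondrial share is 9.50% to 11.2% in controls and 11.9% to 14.1% with 6-shogaol.

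ABCB6 belongs to the mitochondrial transporters of subfamily B, short proteins that handle iron, heme precursors and peptides. It binds porphyrins and is found in the outer mitochondrial membrane and in lysosomal and plasma membranes. The gene lies on chromosome 2 from 219209772 to 219218958 as the deposited table gives it. ABCB6 stood at 45.3, 36.5 and 40.2 CPM in the 3 controls and, in the treated libraries, at 65.3, 79.0 and 71.7 CPM. Every treated library lay above every control. The means were 40.6 ± 4.44 and 72.0 ± 6.87 CPM (SD, n = 3), and the fitted log2 difference was 0.82 (SE 0.11, 95% interval 0.57 to 1.08, edgeR adjusted p = 0.0154). With 1 library left out the value ran from 0.75 to 0.91. The call was lost on leaving out control replicate 2, control replicate 3, 6-shogaol replicate 2 or 6-shogaol replicate 3 (edgeR adjusted p = 0.0705, 0.0657, 0.0551 and 0.0635).

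A second gene model of the table, ENSG00000284820, shares 54.7% of the ABCB6 exon length on the same strand in GENCODE 29. It held 1062, 471 and 404 counts in the controls and 299, 252 and 282 with 6-shogaol, so it went the other way, without passing (log2 fold change -1.07, SE 0.42, edgeR adjusted p = 0.208). Reads of shared exons cannot be assigned to one of the 2. Summed, the pair stood at 65.8, 44.5 and 46.9 CPM in controls and 70.6, 84.0 and 78.2 with 6-shogaol. The groups of the sum did not overlap, but its log2 fold change was 0.57 and it did not pass (edgeR adjusted p = 0.106, a sum chosen after the data were seen).

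Neither ABCB10 nor ABCB8 passed. ABCB10, needed for heme synthesis in erythroid cells, had a log2 fold change of 0.07 (95% interval -0.12 to 0.26) and ABCB8, of the inner membrane, of -0.02 (-0.22 to 0.17). Within a library, the FPKM ratio of ABCB6 to ABCB10 does not depend on the scaling of libraries. It was 1.01, 0.812 and 0.962 in controls and 1.52, 1.66 and 1.51 with 6-shogaol. The ratio of ABCB6 to ABCB8 was 1.91, 1.66 and 1.94 in controls and 3.13, 3.61 and 3.17 with 6-shogaol. In both ratios all treated libraries lay above all controls, a description of a pair chosen with its values known. Both ratios use the reads assigned to ABCB6 alone, without those of ENSG00000284820, and were not computed for the sum.

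The 250 bases before the RefSeq start of ABCB6 are shown because it had the largest called rise, beside those of ABCB8 and ABCB10, mitochondrial members whose intervals included 0. Sequences are from RefSeq on GRCh38.p14, 5′ to 3′ on the gene's strand. Capitals mark matches, on either strand, of the antioxidant response element core TGACNNNGC, the CRE TGACGTCA and the CCAAT box CCAAT.
ABCB6, chr2:219218959-219219208, minus strand: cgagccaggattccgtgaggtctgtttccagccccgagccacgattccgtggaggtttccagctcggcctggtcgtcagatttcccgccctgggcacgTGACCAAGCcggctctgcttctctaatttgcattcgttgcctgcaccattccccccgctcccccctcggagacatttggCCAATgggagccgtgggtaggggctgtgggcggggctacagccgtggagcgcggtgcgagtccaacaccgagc
ABCB8, chr7:151028200-151028449, plus strand: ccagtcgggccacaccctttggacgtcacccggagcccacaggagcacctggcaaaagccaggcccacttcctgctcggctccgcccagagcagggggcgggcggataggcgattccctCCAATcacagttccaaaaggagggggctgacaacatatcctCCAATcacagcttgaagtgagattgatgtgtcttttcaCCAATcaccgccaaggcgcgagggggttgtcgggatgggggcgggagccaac
ABCB10, chr1:229558708-229558957, minus strand: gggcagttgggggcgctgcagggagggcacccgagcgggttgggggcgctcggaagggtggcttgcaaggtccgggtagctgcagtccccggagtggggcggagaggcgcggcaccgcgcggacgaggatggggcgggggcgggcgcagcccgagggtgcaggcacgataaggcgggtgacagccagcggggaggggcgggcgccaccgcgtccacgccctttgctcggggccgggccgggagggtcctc
ABCB6 held 1 antioxidant response element core, 152 to 144 bases before the start, and 1 CCAAT box at 73 to 69. ABCB8 held 3 CCAAT boxes and ABCB10 no match, and no match overlapped another. Of 35093 windows of this length 10.9% held the core, 32.0% a CCAAT box and 1.65% the CRE. Starts were matched for 35 of the 46 members, with 53 windows between them, ABCC3 and ABCC1 being among the unmatched. Of the 53 windows 9 (17.0%) held the core, 11 (20.8%) a CCAAT box and 1, of ABCE1, the CRE. ABCF1, ABCC4, ABCC10, ABCA2, ABCA3, ABCB9, ABCD4 and ABCG4 also held the core, and none of these passed edgeR's test. A match describes letters and shows no bound factor.

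Of 21 heme and iron-sulfur genes that work beside these transporters, 1 rose and none fell (4 higher and 0 lower at unadjusted p under 0.05 in edgeR; DESeq2 called 3 higher and 0 lower, and limma 1 higher and 0 lower). It was ALAS1, the rate-limiting enzyme of heme synthesis in most cells. ALAS1 stood at 47.1, 48.5 and 50.03 CPM in controls and 76.3, 76.4 and 87.5 with 6-shogaol, which is 0.72 on the log2 scale (SE 0.08; edgeR adjusted p = 0.00896). All treated libraries lay above the controls, and 3 of its 16 alternative fits did not pass. For FECH, which inserts iron into the porphyrin ring and was chosen after its values were seen, the log2 fold change was 0.11 (edgeR adjusted p = 0.66). The list's median was -0.02. Of all tested genes edgeR called 1.67% higher and 1.71% lower, and had 10.4% and 9.95% at unadjusted p under 0.05. DESeq2 called 6.00% higher and 6.02% lower of genes with an adjusted p, and limma on log2(FPKM + 1) 6.04% in either direction. The counts called in this and the other partner lists are to be read beside these shares.

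Among the 12 plasma-membrane drug and conjugate pumps, 10 had a mean of 10 or more counts and 9 were tested, of which 1 rose and 0 fell. ABCC3 (multidrug resistance protein 3), on chromosome 17 from 50634777 to 50692253, exports glucuronides and bile salts. It stood at 173, 169 and 174 CPM in controls and 239, 240.0 and 224 with 6-shogaol. The controls lay within a few CPM of each other and all treated libraries above them. The means were 172 ± 2.46 and 234 ± 9.08 CPM (SD, n = 3), and the fitted log2 difference was 0.45 (SE 0.06, 95% interval 0.31 to 0.59, edgeR adjusted p = 0.0153). With 1 library left out the value ran from 0.43 to 0.48, and the call was lost on leaving out any of the 3 controls or 6-shogaol replicate 2 (edgeR adjusted p = 0.072, 0.0898, 0.061 and 0.0666). No other gene with a mean of 10 or more counts shares its exons in GENCODE 29.

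**Figure D4:**
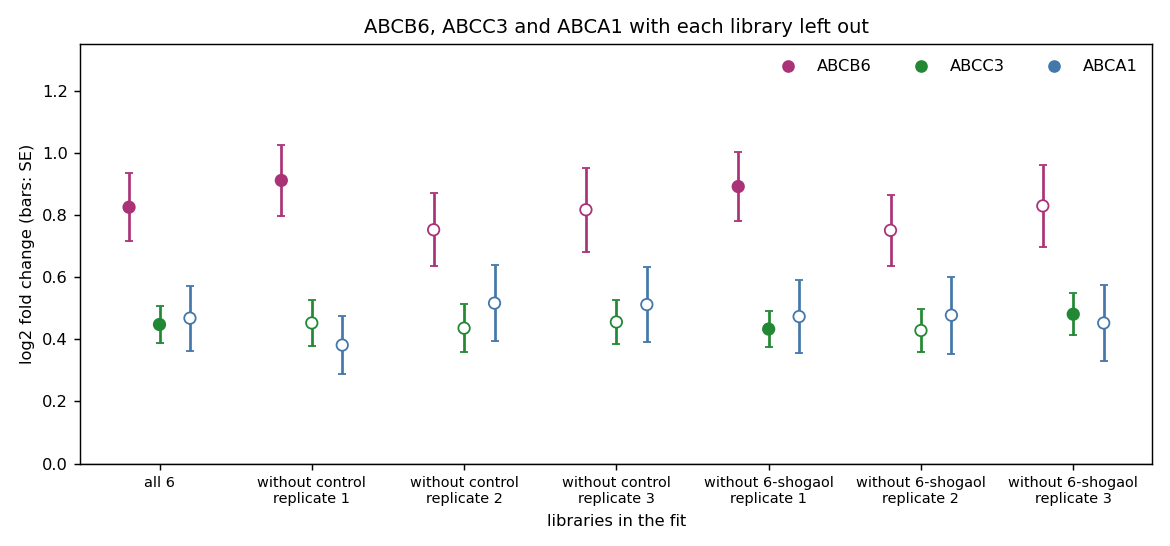
Log2 fold change (y axis, with the SE as bars) of ABCB6, ABCC3 and ABCA1 in the fit of all 6 libraries and with each library left out (x axis). Filled points passed edgeR's test. ABCB6 stays between 0.75 and 0.91 and ABCC3 between 0.43 and 0.48, but each passes in only 2 of the 6 fits of 5 libraries.

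ABCC1 did not move with ABCC3. It stood at 248, 257 and 282 CPM in controls and 271, 236 and 238 with 6-shogaol, and the groups overlapped (log2 fold change -0.08, 95% interval -0.27 to 0.12, edgeR adjusted p = 0.658). The FPKM ratio of ABCC3 to ABCC1 was 0.549, 0.518 and 0.486 in controls and 0.695, 0.801 and 0.742 with 6-shogaol. ABCC2, the apical exporter of glutathione conjugates and bilirubin glucuronides, stood at 14.4, 13.5 and 15.3 CPM in controls and 17.7, 18.1 and 17.6 with 6-shogaol. Its groups did not overlap, and its log2 fold change of 0.31 (SE 0.09) did not pass (edgeR adjusted p = 0.126). ABCC4 and ABCC5, which export cyclic nucleotides among other substrates, had values of 0.00 (95% interval -0.27 to 0.27) and -0.07 (-0.25 to 0.11). ABCC10 had a value of -0.05 (-0.33 to 0.23). For these 3 and ABCC1 the intervals exclude a rise as large as the 0.45 of ABCC3.

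The best-known drug pumps of the blood-brain barrier were at low levels. ABCB1 held 0, 4 and 8 counts in controls and 65, 4 and 8 with 6-shogaol and was not tested. Of its 89 counts 73.0% came from 6-shogaol replicate 1. Scaled to library size, ABCB1 stood at 0, 0.0684 and 0.133 CPM in controls and at 1.15, 0.0798 and 0.184 CPM with 6-shogaol, so replicate 2 lay among the controls and replicate 3 slightly above them. ABCG2 held 39, 16 and 38 counts in controls and 47, 18 and 46 with 6-shogaol, 0.554 ± 0.250 and 0.749 ± 0.356 CPM (SD, n = 3). Its groups overlapped, and its 95% interval of -0.87 to 1.74 on the log2 scale leaves a large change in either direction possible (edgeR adjusted p = 0.725). ABCC11, an exporter of lipophilic anions, had a log2 fold change of 0.65 with an SE of 0.63, and ABCC6, which acts in the release of ATP, of 0.21 with an SE of 0.50. ABCC6 has near-identical pseudogene copies, so its counts are uncertain. ABCB5 and ABCC12 held 0 counts in every library.

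Of 22 genes of glutathione synthesis, conjugation and the NRF2 pathway 1 rose and 0 fell (at unadjusted p under 0.05, 4 higher and 3 lower in edgeR; DESeq2 called 2 higher and 1 lower, and limma 2 higher and 0 lower). SLC7A11, the cystine carrier that feeds glutathione synthesis, stood at 375, 383 and 370 CPM in controls and 463, 576 and 525 with 6-shogaol (log2 fold change 0.47, SE 0.09, edgeR adjusted p = 0.0374). In 8 of its 16 alternative fits SLC7A11 did not pass, and 8.97% of its exon length is shared with its antisense RNA. The NRF2 gene itself, NFE2L2, chosen after its values were seen, showed a log2 fold change of 0.04 (edgeR adjusted p = 0.863). NFE2L2 shares 20.9% of its exon length with neighbours that have a mean of at least 10 counts. The list's median was 0.00, and of all tested genes edgeR called 1.67% higher. Of 16 tested xenobiotic receptors and other drug carriers 1 fell and 0 rose, against 1.71% and 1.67% of all tested genes in edgeR. MVP, the major vault protein, stood at 230, 220 and 236 CPM in controls and 177, 150 and 158 with 6-shogaol (log2 fold change -0.50, SE 0.08, edgeR adjusted p = 0.0266), with no overlap of the groups. MVP did not pass in 7 of its 16 alternative fits.

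Cholesterol and phospholipid exporters had 8 members, of which 5 were tested and none was called over all genes (at unadjusted p under 0.05, 1 higher and 0 lower in edgeR; DESeq2 called 1 higher and 0 lower, and limma 0). ABCA1, which loads cholesterol and phospholipid onto apolipoproteins, stood at 16.3, 19.9 and 19.7 CPM in controls and 25.6, 25.3 and 26.4 with 6-shogaol. All treated libraries lay above the controls, a log2 fold change of 0.47 (SE 0.10, 95% interval 0.22 to 0.71), but the gene did not pass (edgeR adjusted p = 0.0622). It passed in DESeq2 (adjusted p = 0.00488) and with the filter of 1 CPM in 3 libraries (edgeR adjusted p = 0.0497), where 3 of 28 members passed against 5.78% of all genes. ABCA7, a phospholipid transporter, had a value of 0.21 and overlapping groups, its highest value (117 CPM) being in 6-shogaol replicate 1. ABCB4, a phosphatidylcholine exporter of bile, had a value of 0.08.

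The sterol exporters of subfamily G were scarcely present. ABCG1, a usual partner of ABCA1 in cholesterol release, held 4, 0 and 4 counts in controls and 4, 6 and 0 with 6-shogaol, and ABCG5 and ABCG8 held 0 everywhere. ABCG4 held 19, 50 and 20 counts in controls and 18, 4 and 0 with 6-shogaol. Its groups did not overlap, but its log2 fold change of -1.90 has an SE of 1.05 and did not pass (edgeR adjusted p = 0.368). ABCB11, the bile salt export pump, held 8 to 23 counts. Of 17 partners of cholesterol export, among them the LXR and SREBP factors, 1 rose and 0 fell (at unadjusted p under 0.05, 3 higher and 3 lower in edgeR; DESeq2 called 1 higher and 1 lower, and limma 1 higher and 0 lower). NPC1, which moves cholesterol out of lysosomes, stood at 26.6, 27.2 and 28.1 CPM in controls and 33.5, 37.4 and 37.6 with 6-shogaol (log2 fold change 0.41, SE 0.08, edgeR adjusted p = 0.0477). NPC1 shares 5.98% of its exon length with a neighbour on the other strand and did not pass in 8 of its 16 alternative fits. The LXR gene NR1H3, chosen after its values were seen, had a value of 0.17 (edgeR adjusted p = 0.494). Beside the 1 called partner, edgeR called 1.67% of all tested genes higher.

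**Figure D5:**
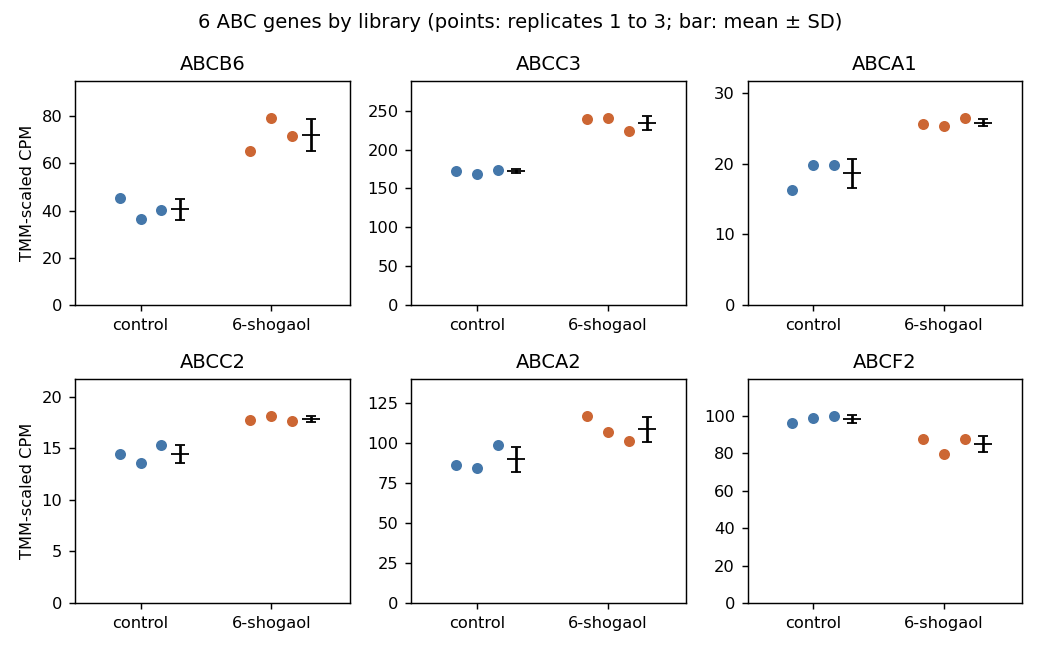
TMM-scaled CPM (y axis, from 0) of 6 ABC genes with an unadjusted p under 0.05, by group (x axis), with 1 point per library and the mean ± SD as a bar. In each panel the 3 treated points lie all above or all below the 3 controls. ABCB6 and ABCC3 passed the adjusted test.

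The other lipid transporters of subfamily A had 10 members, 8 of them tested and none called (at unadjusted p under 0.05, 1 higher and 0 lower in edgeR, and 0 called by DESeq2 and limma). ABCA2, a lysosomal lipid transporter that is abundant in brain, stood at 86.0, 84.2 and 98.6 CPM in controls and 117, 107 and 101 with 6-shogaol. The groups did not overlap, though control replicate 3 and 6-shogaol replicate 3 lay close together, and the log2 fold change of 0.27 (SE 0.09) did not pass (edgeR adjusted p = 0.152). ABCA3, the lamellar body transporter of lung surfactant lipids, was the member of subfamily A with the highest level at 12.1 ± 1.22 FPKM in controls and 12.2 ± 1.48 with 6-shogaol (SD, n = 3). Its log2 fold change was -0.01 (95% interval -0.25 to 0.23). ABCA8, with 9.17, 8.71 and 7.73 CPM in controls and 7.47, 7.54 and 7.30 with 6-shogaol, had groups that did not overlap and a value of -0.20 that did not pass (edgeR adjusted p = 0.42). ABCA5 had a value of 0.36 (SE 0.19). ABCA4, ABCA10, ABCA12 and ABCA13 held at most 98 counts in a library, with SEs from 0.37 to 1.495. ABCA10, with 8, 11 and 0 counts in controls and 0, 37 and 12 with 6-shogaol, had the highest fitted value of all members, 1.55, which its SE of 1.495 leaves without a direction. ABCA6 and ABCA9 held 0 to 4 counts.

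Peroxisomal transporters of subfamily D carry very-long-chain and branched-chain fatty acids as CoA esters for breakdown. None of the 3 passed in edgeR. ABCD3, which takes up branched-chain acids and bile acid precursors, had a value of 0.02 (95% interval -0.12 to 0.17), and stood at 101 to 107 CPM over the 6 libraries. ABCD2 held 26 to 50 counts in a library and had a value of 0.48 (SE 0.35), with no overlap of the groups. Of 18 peroxisomal partner genes 0 were called in either direction (2 higher and 0 lower at unadjusted p under 0.05 in edgeR; DESeq2 and limma also called 0). ACSL3, an acyl-CoA synthetase, had the smallest p of them (log2 fold change 0.25, edgeR adjusted p = 0.15).

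The lysosomal members did not pass. ABCD4, which takes part in the release of vitamin B12 from lysosomes, had a value of 0.02 (95% interval -0.16 to 0.19). ABCB9, a lysosomal peptide transporter, had a value of -0.21 (SE 0.13), and 24.5% of its exon length is shared with genes on the other strand that include ARL6IP4. TAP1 and TAP2, the peptide transporters of antigen loading that lie outside the naming rule, fell together with their partner TAPBP. TAP1 stood at 60.1, 67.7 and 59.7 CPM in controls and 34.9, 30.3 and 39.5 with 6-shogaol (log2 fold change -0.84, SE 0.11, edgeR adjusted p = 0.0159). TAP2 had a value of -0.43 and TAPBP of -0.40 (edgeR adjusted p = 0.0341 and 0.0351), and these 3 did not pass in 5, 7 and 7 of their 16 alternative fits. TAP2 shares 32.3% of its exon length with another gene model on the same strand.

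The soluble ABC proteins of translation, the role with the largest share of the summed FPKM, had 4 members and none passed (at unadjusted p under 0.05, 0 higher and 1 lower in edgeR, and 0 called by DESeq2 and limma). ABCF2 stood at 96.2, 99.1 and 99.97 CPM in controls and 87.8, 79.9 and 87.5 with 6-shogaol, without overlap (log2 fold change -0.21, SE 0.07, 95% interval -0.37 to -0.05, edgeR adjusted p = 0.144). ABCF1 and ABCF3 had values of -0.12 (-0.28 to 0.04) and -0.11 (-0.39 to 0.16). The groups of ABCF3 overlapped, at 84.4, 90.6 and 86.1 CPM in controls and 95.2, 70.4 and 75.7 with 6-shogaol. The 3 ABCF values were below 0 in each of the 17 fits run, the scalings included, but these fits share the same libraries. ABCF2 shares 45.8% of its exon length with the readthrough gene ABCF2-H2BE1, which held 11, 0 and 0 counts in controls and 0, 0 and 97 with 6-shogaol. ABCE1, which splits ribosomes after termination, had a value of 0.14 (-0.13 to 0.41), with 53.8 CPM in 6-shogaol replicate 1 against 71.4 and 69.0 in the other treated libraries. Of 20 translation partners 1 rose and 0 fell (at unadjusted p under 0.05, 4 higher and 1 lower in edgeR; DESeq2 called 4 higher and 0 lower, and limma 2 higher and 0 lower). It was EIF2S2, the beta subunit of eIF2 (log2 fold change 0.44, SE 0.09, edgeR adjusted p = 0.0456), which did not pass in 8 of its 16 alternative fits. Over all genes edgeR called 1.67% higher and DESeq2 6.00%.

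The sulfonylurea receptors ABCC8 and ABCC9, regulatory subunits of ATP-sensitive potassium channels, were under a mean of 10 counts. ABCC8 held 27, 9 and 0 counts in controls and 0, 0 and 19 with 6-shogaol. ABCC9 held 0 in all controls and 0, 15 and 20 with 6-shogaol. Of their channel partners, KCNJ8 had a log2 fold change of -0.40 and neither of the 2 tested genes passed (edgeR adjusted p = 0.259 for KCNJ8).

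Over the 35 tested members, 11 had groups that did not overlap in CPM, 7 higher and 4 lower (31.4%, against 27.9% of all tested genes, 14.0% higher and 13.9% lower). ABCB6, ABCC3, ABCA1, ABCC2, ABCA2 and ABCD2 were among the higher ones, and ABCF2, ABCA8 and ABCG4 among the lower ones. Of the 22 tested members with a mean of at least 1 FPKM, 21 had a log2 fold change under 0.5 in size, ABCB6 being the exception. Their SEs ran from 0.06 to 0.13, while those of the 13 tested members under 1 FPKM ran from 0.12 to 1.495.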

How the data were processed

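RNA sequencing measured 3 control and 3 6-shogaol libraries, grouped by the sample titles. The authors deposited raw counts per gene and, per the file headers, FPKM values. The submitters' processing notes name the builds GRCm38 and mm10, of mouse, but all 60612 identifiers are human, 0 being mouse. The aligner, counting tool and strand setting are not given in the sources used here. Coordinates are printed as deposited, and 11 of the 46 members have exactly those of GENCODE 29 (GRCh38).

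The count model was edgeR 4.0.16 under R 4.3.3 (filterByExpr, TMM, glmQLFit and glmQLFTest), fitted to 19279 genes, and adjusted p-values (Benjamini-Hochberg) under 0.05 were called, leaving 12752 genes with counts untested. Each SE was taken as |log2 fold change| / sqrt(F), and CPM values use TMM library sizes. In simulated counts of this comparison over 19279 genes the step, tested on simulated data, found 18% of the genes altered 1.5-fold, 50% of those altered 2-fold, 84% for 3-fold and 88% for 4-fold, and made 14 false calls. Other settings tried were DESeq2 1.42.0, RLE or upper-quartile scaling, different filters, robust moderation, a block for replicate number, omission of single libraries, and limma 3.58.1 on log2(FPKM + 1) or log2(FPKM + 0.1), where a fold change of a low gene is understated. No library was a duplicate of another (the chi-square over its degrees of freedom was 34.7 to 71.4 between replicates).

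The members, the role and partner lists and the tests were chosen with earlier results of these data known. Genes were named when called, when their groups did not overlap, when they had the largest change of their role, when among the 8 highest by FPKM, or when they were ABCB1, ABCC1, ABCC3, ABCG2, ABCA1 or ABCG1. In partner lists up to 3 called genes, or else the one with the smallest p, were named. Further members, among them ABCB8, ABCB10, ABCC4, ABCC5 and ABCC10, were named outside these rules with their values known. Some members are counted in the totals but not reported here by name.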

Additional observations from a re-analysis of the deposited data

How the results depend on the processing

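The count of 2 ABC genes called (2 higher, 0 lower) held under RLE and upper-quartile scaling, no filter on low counts, robust moderation and all 3 limma fits. DESeq2 called 4, of which 1 was lower. With 1 library left out 0 to 2 were called, all of them higher. No pairing of the samples by replicate number was seen (same-numbered deviations correlated at -0.03, 0.06 and -0.04). Values from 3 libraries a group do not exclude one. The replicate block left 0 ABC genes called, 0 of them higher, and 3 of all genes. Over all genes the count of 651 became 1866 in DESeq2, 378 with no filter, 272 in limma with no filter and 98 to 1012 with 1 library left out. The members' median log2 fold change was 0.069 with no filter and 0.0024 to 0.090 with 1 library left out. ABCA3 turned to 0.012 in the 3 limma fits and ran from -0.089 to 0.071 with 1 library left out, and ABCC11 ran from -0.085 to 1.07; the cause was not tested. Of the 35 tested members 23 kept 1 sign in every fit that held them, out of 17 fits. Some members of low level were missing from part of the fits, ABCA10 and ABCG2 being held by only 14. With 3 libraries a group, most 1.5-fold changes in simulated counts were missed. The genes altered there were drawn from tested genes above a set mean count, without regard to the spread of the members. Tested members of low level, such as ABCG2 and ABCG4, lay under that mean. The median SE was 0.11 for tested members and 0.17 for all tested genes, so the simulated shares need not hold for members. A member that did not pass may still have changed by any amount within its interval.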

Other observations

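ABC pseudogenes outside the naming rule held few reads. ABCA11P stood at 2.74 ± 0.143 CPM in controls and 4.01 ± 0.964 CPM with 6-shogaol (SD, n = 3), and did not pass (log2 fold change 0.55, SE 0.22, edgeR adjusted p = 0.221). ABCA17P stood at 0.584 ± 0.217 and 0.545 ± 0.117 CPM. The pseudogene copies of ABCB10, ABCC6 and ABCF2 had means under 10 counts.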
